A study of Mus musculus with 7 samples.

Results

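The genes described are a module of 33 mouse genes of the interferon response and of antigen presentation by class I molecules. They were taken by name from a list, not by their values, out of 17784 genes in 7 single-cell libraries. Of the 33 genes, 32 had a row in the tables, and Usp18 was not analysed here. The module holds 4 transcription factors (Stat2, Irf1, Irf7, Irf9), 13 antiviral effectors with a row, 3 IFITM genes, 2 guanylate-binding proteins, 3 immunoproteasome subunits, 3 genes of peptide transport and loading, 3 class I chains and the chemokine Cxcl10.

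All cells were from C57BL/6 mice, and the study asked how far donor cells take on the state of oligodendrocyte progenitor cells when transcription factors are forced into them. Embryonic fibroblasts carried viruses with Olig2 and Sox10 (MEF-2F) or with Olig2, Sox10 and Nkx6.2 (MEF-3F), and were compared with untreated fibroblasts (MEF). Brain pericytes, the mural cells of small vessels, carried the same sets of factors (PC-2F and PC-3F) and were compared with untreated primary pericytes (PC). Untreated primary oligodendrocyte progenitors from brain (pOPC) were the target cell type. Fibroblasts grew in MEF medium and pericytes in pericyte medium, whereas pOPC and the converted cells grew in OPC medium, so factor, virus and medium cannot be told apart in a comparison with a donor. The labels name neither the kind of virus, nor the time since transduction, nor an empty-virus control, and they do not say how many animals gave the cells.

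Interferons are secreted proteins that cells release when they sense foreign nucleic acid. Their receptors signal through JAK kinases to STAT proteins, and STAT2 and IRF9 are part of the complex ISGF3. ISGF3 binds interferon-stimulated response elements near its target genes, among them antiviral effectors and the factors Irf7 and Irf9 themselves. Type II interferon induces IRF1 and raises the machinery of antigen presentation. In that machinery the immunoproteasome cuts proteins into peptides, TAP1 and TAP2 carry the peptides into the endoplasmic reticulum, and tapasin (Tapbp) helps to load them onto a heavy chain (H2-K1 or H2-D1) paired with beta-2-microglobulin (B2m). Neural cells of the healthy brain are known for low levels of class I molecules.

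The response elements are shown because they are the feature of sequence that interferon target genes are known to share, and because they show which members carry one near the start. The 250 bases upstream of each gene's start in RefSeq (build GRCm38.p6) were searched for GAAANNGAAA and, for the other strand, TTTCNNTTTC, with overlapping matches allowed. Of the 28 members with a promoter entry, 11 held a match (39.3%), against 936 of 27025 genes (3.46%) and 978 of 32851 promoters (2.98%). The 11 were Stat2, Ifit1, Ifit3, Isg15, Bst2, Rsad2, Ifitm2, Gbp2, Gbp3, B2m and Cxcl10. The windows shown are read on the strand of each gene, with the matches and their overlaps in capitals. They lie at chr8:71537562-71537627 on the minus strand (Bst2), chr4:156200850-156200921 on the minus strand (Isg15), chr19:34640760-34640838 on the plus strand (Ifit1), chr19:34583348-34583441 on the plus strand (Ifit3), chr2:122147523-122147582 on the plus strand (B2m) and chr10:128270251-128270310 on the plus strand (Stat2).
Bst2: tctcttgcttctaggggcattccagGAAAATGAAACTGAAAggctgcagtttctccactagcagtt
Isg15: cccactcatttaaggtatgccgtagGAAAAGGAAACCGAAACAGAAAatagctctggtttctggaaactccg
Ifit1: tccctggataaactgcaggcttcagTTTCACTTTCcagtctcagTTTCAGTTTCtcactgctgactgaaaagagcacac
Ifit3: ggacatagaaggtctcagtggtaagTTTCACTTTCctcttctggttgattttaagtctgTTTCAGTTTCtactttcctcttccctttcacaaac
B2m: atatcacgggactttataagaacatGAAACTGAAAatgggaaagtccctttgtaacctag
Stat2: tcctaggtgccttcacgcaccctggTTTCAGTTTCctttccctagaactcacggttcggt

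Isg15 had 3 overlapping matches, Bst2 had 2 that overlap, Ifit1 and Ifit3 had 2 separate ones, and B2m and Stat2 had 1 each. The match nearest to the start began 66 bases before it in Isg15, 85 in Ifit1, 122 in Ifit3, 124 in Bst2, 139 in B2m and 222 in Stat2. No match was found in the searched bases of Irf7, Irf9, Oasl2, Ifi35, Ifitm3, H2-K1 or H2-D1, which says only that these letters are not there. A match is a description of the sequence, not a shown binding site.

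Each library was a droplet capture of dissociated cells on the ddSEQ system, with 3′ ends of transcripts counted by unique molecular identifiers (UMIs). The libraries kept 82 to 290 barcodes, 230442 to 1292592 UMIs and a median of 1866 to 6259 UMIs per barcode, and no barcode was shared between libraries. Levels are UMIs of a gene, summed over the kept barcodes of a library and scaled to 1e+06 UMIs in all (CPM). There was 1 library per population, so nothing was tested between populations: intervals of levels, ratios and shares (95%, exact) cover counting error only, and no difference has a replicate check. Intervals of medians over the members come from the ranks of the members as if these were independent. They do not measure counting error or the spread between libraries. A gene counted as measured in a comparison where either library had 10 UMIs of it and 20 CPM, and it was called where the ratio reached 2-fold in a direction and its interval left out 1. A gene measured through 1 of the libraries alone is high there, so it can hardly be called in the other direction. The shares of all genes come from the same rule. A count of 0 is compared through a floor of 3 UMIs, which is 2.32 CPM in the deepest library, PC, and 13.0 CPM in the shallowest, MEF-2F. Sox10 was at 130.2 CPM in MEF-2F and at 244 CPM in MEF-3F, against 12.7 CPM in MEF, and at 251 CPM in PC-2F and 216 CPM in PC-3F, against 0 CPM in PC, and Olig2 had no UMI in either donor. Nkx6-2 had at most 2 UMIs in any library, so its counts do not check the labels of 2 against 3 factors. The pericyte markers Rgs5, Kcnj8 and Abcc9 had 0 UMIs in PC, while Pdgfrb was at 343 CPM there, and 9 markers of progenitors summed to 7906 CPM in pOPC.

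Most barcodes had a close copy. Barcodes of a block that differed by 1 base were joined into groups, which left 606 groups of the 1124 kept barcodes. Of these groups, 466 held 2 to 4 barcodes, and 471 of the 522 pairs 1 base apart differed in the first base. In such pairs a median of 83.7% (PC) to 95.3% (MEF-2F) of the UMIs of the shallower barcode were matched gene by gene in the deeper one, against 41.6% to 57.6% in other pairs of the same block. The first block of PC had no such pair. Intervals over all barcodes treat each UMI as a separate molecule, and whether a molecule was listed under both barcodes was not tested. All comparisons were also made again with the deepest barcode of each group alone, 49 to 171 per library, a choice made after the data were seen. Calls of named members that this ended are given beside their values, and sentences on cells use 1 barcode per group.

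Some cells of the donor libraries stood apart in the module. The PC library joined 2 blocks of barcodes, of 39 and 251 kept barcodes (39 and 132 with 1 per group), which the labels do not explain, and the levels of the module differed between them as described next. In MEF, 4 of 131 barcodes (3 of 62 with 1 per group) held 140 of the 153 UMIs of 10 microglia and macrophage markers and 78 of the 1899 UMIs of the module. Results that rest on either are given with and without those barcodes.

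The first block of the pericyte library had much higher levels of interferon-response genes than the second. Of 16 measured members, 12 were higher in block 1 and 0 were lower, where 4.2% of all measured genes were higher and 4.13% lower. The median log2 ratio of block 1 to block 2 was 1.31 over the members (95% interval of the median 1.04 to 3.86), against -0.04 over all measured genes. This comparison was added after the data were seen, and over the alternatives tried for it 9 to 18 members were higher and 0 lower, with medians from 1.20 to 1.98. The same 12 were higher, of 15 measured, with 1 barcode per group. All 6 measured antiviral effectors and all 3 class I chains were among the 12. Ifit3, Oasl2, Rtp4 and Irf9 were measured through block 1 alone and could hardly be called lower. Bst2, which encodes tetherin, a membrane protein that holds budding virus on the cell, was at 932 CPM in block 1 and 43.3 CPM in block 2, a 21.5-fold difference (15.5 to 30.4). Oasl2, a relative of the oligoadenylate synthetases, was at 143.9 CPM in block 1 and 4.41 CPM in block 2. Rtp4, a receptor transporter that interferon induces, was at 119 CPM in block 1 and 7.95 CPM in block 2. These are 32.6-fold (12.1 to 109.8) and 15.0-fold (6.45 to 37.5) higher levels in block 1. Ifit3, which binds IFIT1 on viral RNA, had 13 UMIs in block 1 (81.3 CPM) and 0 in block 2. Its ratio to the floor of 3 UMIs was 30.7, or 17.0 with 1 barcode per group.

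**Figure D1:**
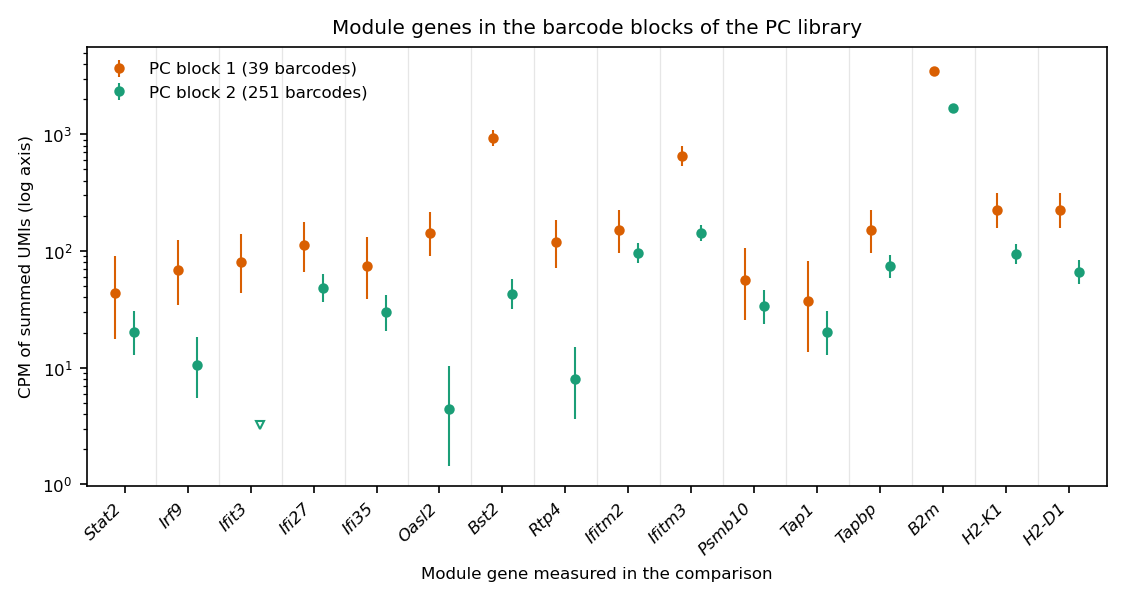
Level (CPM of summed UMIs, log axis) of the 16 module genes measured in PC block 1 (39 barcodes, left point of each pair) and PC block 2 (251 barcodes, right point). Points are levels, bars are 95% Poisson intervals, and the open triangle is the upper limit where no UMI was seen (Ifit3 in block 2); every gene lies higher in block 1, with the widest gaps in Bst2 (932 against 43.3 CPM), Oasl2, Rtp4 and Ifit3.

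Among the transcription factors of the response, Irf9 was called higher and Stat2 was measured but not called. Irf9, the DNA-binding subunit of ISGF3, was at 68.8 CPM in block 1 and 10.6 CPM in block 2, a 6.496-fold difference (2.60 to 16.1). Irf7, the factor that amplifies type I interferon production, had 9 UMIs in block 1 (56.3 CPM) and 3 in block 2 (2.65 CPM), and Isg15, a ubiquitin-like modifier, had 8 UMIs (50.05 CPM) and 1 UMI (0.883 CPM). Both were under the minimum of 10 UMIs and were not counted. Stat2 was at 43.8 CPM in block 1 and 20.3 CPM in block 2, with an interval of the ratio from 0.782 to 5.19. Irf1, the factor most tied to type II interferon, was at 6.26 CPM (0.158 to 34.9) in block 1, from 1 UMI, and 11.5 CPM (6.11 to 19.6) in block 2, from 13 UMIs. The wide interval of block 1 leaves the order of the blocks in Irf1 unread.

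The other called members differed less. Ifitm3, a membrane protein that blocks virus entry, was at 657 CPM in block 1 and 142 CPM in block 2, 4.62-fold higher (3.58 to 5.95). H2-D1 was at 225 CPM in block 1 and 66.2 CPM in block 2, and H2-K1 at 225 CPM in block 1 and 94.5 CPM in block 2. These heavy chains were 3.40-fold (2.22 to 5.13) and 2.38-fold (1.59 to 3.51) higher. Ifi35 was 2.501-fold, Ifi27 2.32-fold, B2m 2.07-fold (1.88 to 2.28) and Tapbp 2.02-fold higher, close to the threshold. B2m and Tapbp fell under 2-fold when the libraries were scaled by TMM (1.97 and 1.92), and Ifi27 was 1.07-fold when CPM were averaged over barcodes. Ifitm2, Psmb10 and Tap1 had larger values in block 1 with intervals that reach 1 or below. The summed level of the antiviral effectors was 1601 CPM in block 1 and 155 CPM in block 2, and that of the class I chains 3929 and 1838 CPM.

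The difference between the blocks was spread over most cells. The median cell had 1596 CPM of antiviral effectors in block 1 and 0 CPM in block 2. For all members together the median cell was at 6368 CPM in block 1 and 2052 CPM in block 2, and no cell of block 1 was under 3530 CPM. At least 3 different antiviral genes had a UMI in 18 of 39 cells of block 1 and in 2 of 132 cells of block 2. Bst2 had a UMI in 33 of 39 cells (84.6%) of block 1 and in 19 of 132 cells (14.4%) of block 2, with median depths of 3264 and 4056 UMIs. After each cell was thinned to 1000 UMIs, which left out 3 cells of block 1 and 14 of block 2, the shares were 22 of 36 (61.1%, exact binomial interval 43.5 to 76.9) and 5 of 118 (4.24%, 1.39 to 9.61). In pOPC, a cell type low in the module, 0 of 53 cells had a Bst2 UMI at a median depth of 5624, and thinned to 1000 UMIs 0 of 49, which allows up to 7.25% by the exact interval. Within block 2, 1 cell held 9 UMIs of antiviral effectors among 3101, with 4 of Ifit1, 3 of Rtp4 and 2 of Oasl2 but none of Bst2.

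**Figure D2:**
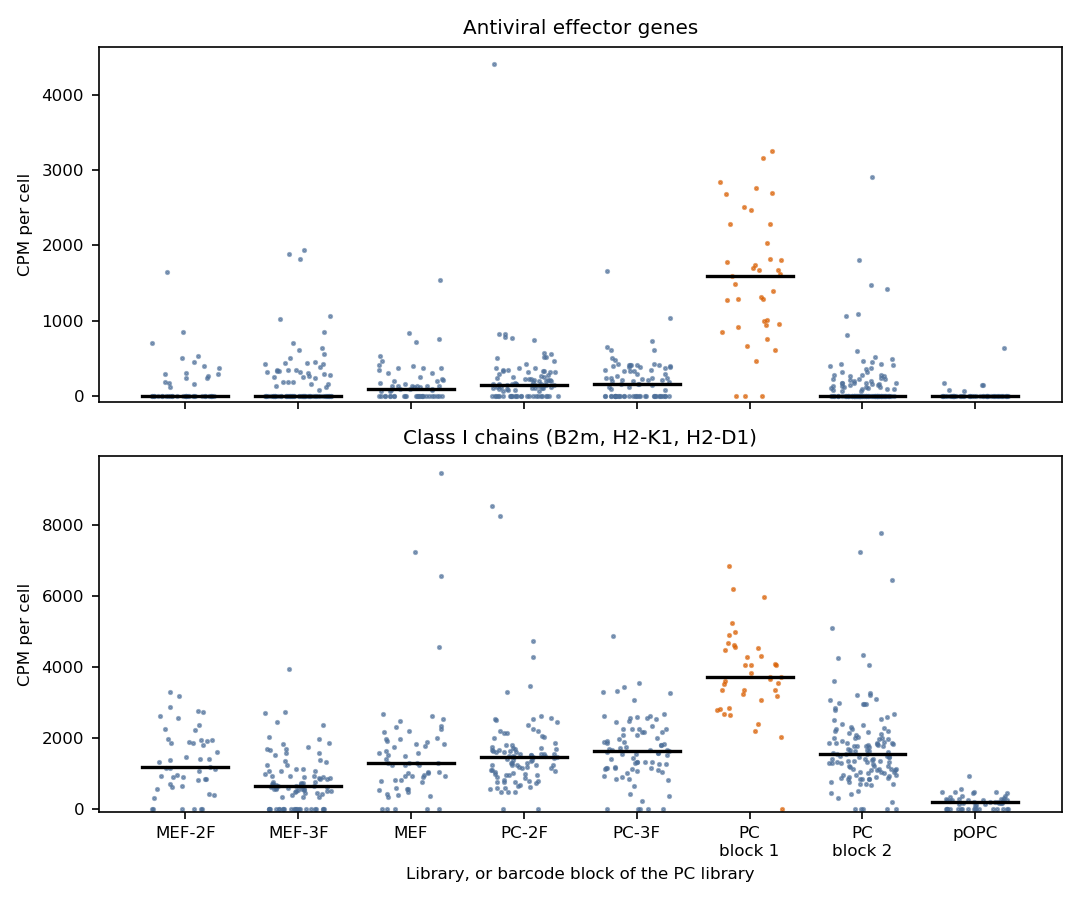
CPM per cell of the antiviral effector genes (top) and of the class I chains B2m, H2-K1 and H2-D1 (bottom) in each library, with the PC library split into its blocks; each point is a cell (1 barcode per group) and the bar is the median. The median cell of PC block 1 is at 1596 CPM of antiviral effectors and that of PC block 2 at 0. Single cells of PC-2F (32 UMIs of antiviral effectors) and PC block 2 (9 UMIs) lie far above their own medians. High points elsewhere outside PC block 1 rest on few UMIs, with at most 4 in a cell of MEF-3F, 3 in MEF-2F, 4 in MEF and 5 in PC-3F.

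Interferon-stimulated genes outside the module moved with it between the blocks. Of 50 such genes in a list, 40 had a row and 12 were measured. Of these, 9 were higher in block 1 and 0 lower, where 4.2% of all measured genes were higher and 4.13% lower. The median log2 ratio was 1.45. With 1 barcode per group 8 of 13 were higher, against 3.52% of all genes. Ifi27l2a, Sp100, Parp9 and Ifi204 were measured through block 1 alone and could hardly be called lower. Isg20 was measured through block 2 alone. Ifi27l2a was at 87.6 CPM in block 1 and 1.77 CPM in block 2, Lgals3bp at 332 and 39.7 CPM, Sp100 at 93.8 and 9.71 CPM, and Parp9 at 87.6 and 15.9 CPM. Interferon receptors and their kinases had 0 of 8 measured genes called, and 1 of 8 higher with 1 barcode per group. Among sensors of nucleic acid 1 of 7 was higher, Ddx58 (RIG-I), at 75.1 CPM in block 1 and 34.4 CPM in block 2, and 0 of 7 with 1 barcode per group. Other class I and loading genes gave 0 of 4 in either direction, and the standard proteasome 1 of 5 higher. Among chemokines 1 of 3 was lower in block 1, Ccl7, at 50.05 CPM in block 1 and 162 CPM in block 2. Of 12 interferon genes in a list 1 had a row, Ifnb1, with 1 UMI in PC, in block 2.

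Markers of immune and endothelial cells were low in both blocks. The 10 microglia and macrophage markers summed to 31.3 CPM in block 1 and 15.9 CPM in block 2, and C1qa, C1qb, Tyrobp and Fcer1g had no UMI in either. Endothelial markers summed to 12.5 CPM in block 1 and 30.02 CPM in block 2, and of 7 lymphocyte markers the 1 with a row had no UMI. Fibroblast markers summed to 3785 CPM in block 1 and 3598 CPM in block 2, and pericyte markers to 425 and 416 CPM, with 0 of 4 and 0 of 2 measured markers called (1 of 2 pericyte markers higher with 1 barcode per group). The blocks of MEF-2F and MEF-3F, the other libraries that join 2 blocks, gave 0 of 6 and 0 of 10 measured members called, where 3.48% and 5.3% of all measured genes were higher in block 1 and 3.98% and 4.88% lower. Because the PC library holds both blocks, levels in either block are also given for most of the members described.

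**Figure D3:**
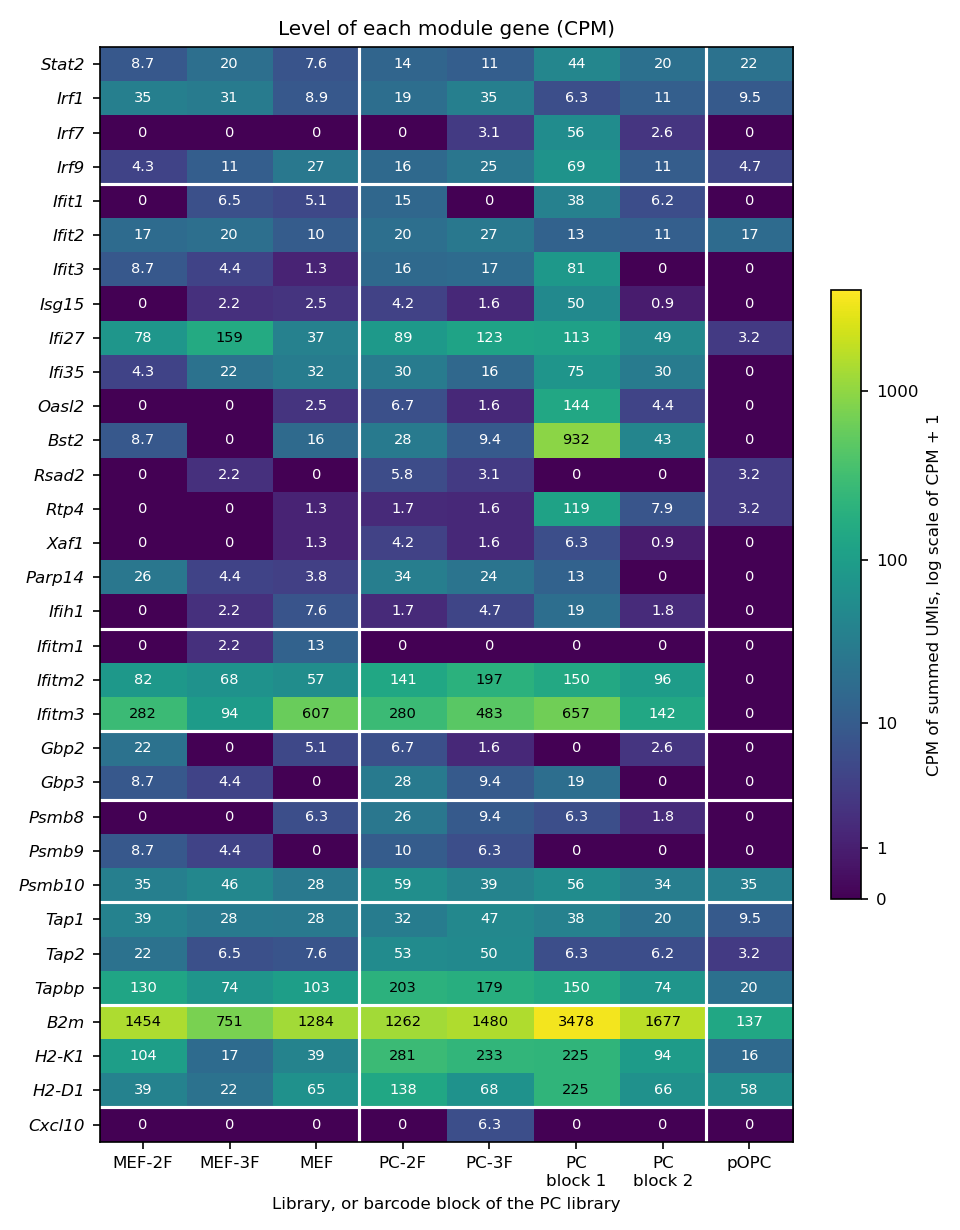
Level in CPM of each of the 32 module genes with a row (rows, grouped by role) in the 7 libraries, with PC shown as its 2 blocks (columns). Colour follows the log of CPM + 1 and the number in each cell is the level; PC block 1 stands out in Irf7, Irf9, Ifit3, Isg15, Oasl2, Bst2 and Rtp4, and pOPC is at 0 or low in most genes.

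Over whole libraries, 12 of the 32 members had a UMI in all 7, 8 reached 100 CPM in at least 1 (Ifi27, Bst2, Ifitm2, Ifitm3, Tapbp, B2m, H2-K1 and H2-D1), and 10 stayed under 20 CPM in every library (Irf7, Ifit1, Ifit3, Isg15, Rsad2, Xaf1, Ifih1, Ifitm1, Psmb9 and Cxcl10). Gbp2, a guanylate-binding protein, was at 21.7 CPM in MEF-2F and at 6.67 CPM or less elsewhere. The members summed to 2417 CPM in MEF-2F, to 1401 CPM in MEF-3F and to 2405 CPM in MEF. They summed to 2826 CPM in PC-2F, 3114 CPM in PC-3F and 2956 CPM in PC, and to 342 CPM in pOPC. The primary progenitors thus had the lowest sum and MEF-3F the next lowest, and in pOPC 14 of 32 members had a UMI at all.

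Of the module, Tap2 was higher in both converted pericyte libraries than in untreated pericytes, against either block and with 1 barcode per group. Oasl2, Bst2 and Rtp4 were lower in both than in all of PC. Other calls against PC changed with the block or with the repeated barcodes. Tap2, Parp14, Gbp3, Psmb8, Irf1 and Ifit2 were under 20 CPM in PC and were measured through a converted library alone. The same held for Tap2 against either block. Oasl2 and Rtp4 were measured through PC alone, as were Bst2 and Ifi35 in the comparison with PC-3F. These members could hardly be called in the other direction. In PC-2F against PC, 6 of 19 measured members were higher and 3 lower, where 17.7% of all measured genes were higher and 12.8% lower. In PC-3F against PC, 9 of 19 were higher and 4 lower, where the shares of all genes were 18.8% and 15%. Using 1 barcode per group, PC-2F gave 6 of 20 higher and 3 lower, whereas PC-3F gave 3 of 18 higher (Irf1, Ifitm3 and Tap2), a share near the 17.2% of all genes, and 4 lower. The median log2 ratio over the members was 0.66 in PC-2F (-0.59 to 1.34) and 0.94 in PC-3F (-0.999 to 1.20), against 0.05 over all genes in both. Against block 1 alone, PC-2F had 1 of 20 measured members higher and 8 lower (15% and 10.9% of all genes), while for PC-3F 1 of 19 was higher and 8 were lower (14.9% and 12.1%). Against block 2 alone, PC-2F had 7 of 17 higher and 0 lower (17.9% and 12.3%), while for PC-3F 11 of 17 were higher and 1 lower (18.8% and 14.5%). Markers of other cell types also differed: fibroblast markers summed to 3579 CPM in PC-2F and 8845 CPM in PC-3F, against 3621 CPM in PC, with 4 and 5 of 7 called higher, and endothelial markers to 0.834 and 0 CPM, against 27.9 CPM in PC. Pericyte markers summed to 1336 CPM in PC-2F and 1480 CPM in PC-3F, against 417 CPM in PC, with 3 of 4 measured higher and 1 lower for PC-2F and 2 of 3 higher and 1 lower for PC-3F. Mitochondrial genes took 1.62% of UMIs for PC-2F and 0.785% for PC-3F, with 0.137% for PC. The part of these differences in the results was not tested. The direction of the median turned with the block: against block 1 it was -0.35 in PC-2F and -0.45 in PC-3F, and against block 2 it was 0.87 in PC-2F and 1.21 in PC-3F.

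Tap2, which with TAP1 forms the peptide transporter, was higher in the converted pericytes whichever block was used. It was at 53.4 CPM in PC-2F and 50.4 CPM in PC-3F, against 6.26 CPM in PC block 1 and 6.18 CPM in PC block 2. Against all of PC the ratio was 8.62-fold in PC-2F (4.12 to 20.8) and 8.14-fold in PC-3F (3.67 to 20.4), although PC block 1 had 1 UMI of the gene. Tap2 had a UMI in 27 of 95 cells of PC-2F, and the 3 highest cells held 21.1% of its UMIs. Thinned to 1000 UMIs, 4 of 94 cells of PC-2F and 7 of 81 of PC-3F had a Tap2 UMI, against 1 of 36 in PC block 1 and 1 of 118 in PC block 2. These cells are too few to set the share of either converted library apart from that of block 1. The Tap2 gene lies at chr17:34203527-34216321 on the plus strand, in a row with Psmb9, Tap1 and Psmb8.

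Tapbp and H2-K1 were higher in the converted pericytes than in block 2 of PC and were not called against block 1. Tapbp was at 203 CPM in PC-2F and 179 CPM in PC-3F, against 150.1 CPM in PC block 1 and 74.2 CPM in PC block 2. H2-K1 was at 281 CPM in PC-2F and 233 CPM in PC-3F, against 225 CPM in PC block 1 and 94.5 CPM in PC block 2. Against all of PC, Tapbp was 2.43-fold (1.93 to 3.07) and H2-K1 2.54-fold (2.08 to 3.11) higher in PC-2F, and both were called in PC-3F too. In PC-3F the ratios of Tapbp and H2-K1 were 1.93 and 1.75 with 1 barcode per group and 1.72 and 1.95 when CPM were averaged over barcodes, all under the threshold. Tap1, the other chain of the transporter, was at 31.7 CPM in PC-2F and 47.2 CPM in PC-3F, against 22.4 CPM in PC. It was not called in PC-2F, and its call in PC-3F (2.11-fold, 1.22 to 3.63) ended with 1 barcode per group (1.93) and with CPM averaged over barcodes (1.33). H2-K1 and H2-D1 are near-identical in much of their sequence, so reads may be split between them in ways that cannot be seen here.

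B2m differed from H2-K1 in this respect in both converted libraries, and H2-D1 did so in PC-3F. In PC-2F, H2-D1 was called higher against block 2 (2.08) and was not called against block 1. B2m was at 1262 CPM in PC-2F and 1480 CPM in PC-3F, against 3478 CPM in PC block 1 and 1677 CPM in PC block 2. It was not called against all of PC or block 2, and against block 1 it was 2.76-fold lower in PC-2F and 2.35-fold lower in PC-3F. H2-D1 was at 138 CPM in PC-2F and 67.7 CPM in PC-3F, against 225 CPM in PC block 1 and 66.2 CPM in PC block 2. Against block 1, H2-K1 was not called in either converted library (1.25 in PC-2F and 1.03 in PC-3F), whereas H2-D1 was 3.33-fold lower in PC-3F. H2-D1 was also 2.03-fold lower in PC-3F than in PC-2F, a call that ended with 1 barcode per group (ratio 0.513).

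**Figure D4:**
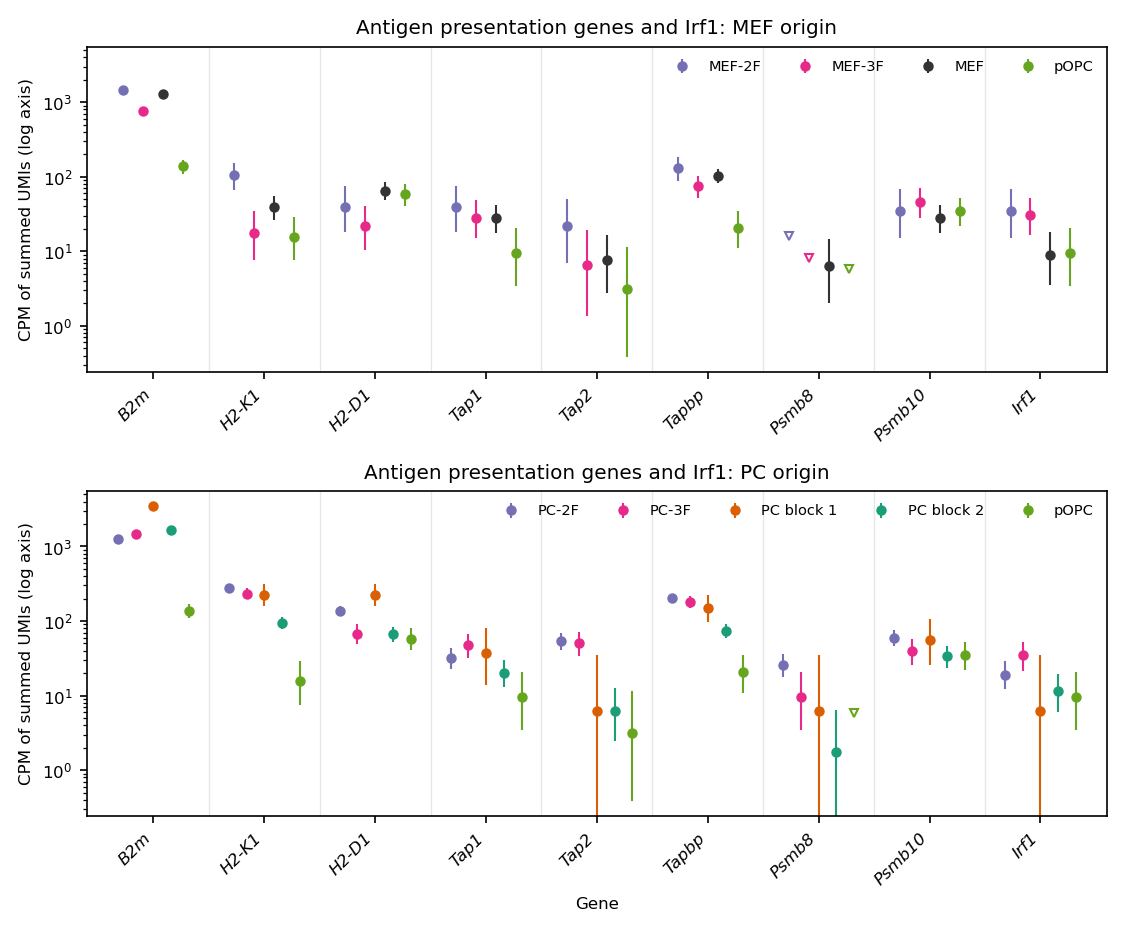
Level (CPM of summed UMIs, log axis) of 8 antigen presentation genes and Irf1 in MEF-2F, MEF-3F, MEF and pOPC (top) and in PC-2F, PC-3F, PC block 1, PC block 2 and pOPC (bottom). Points are levels, bars are 95% Poisson intervals (running off the axis where they start near 0) and open triangles are upper limits where no UMI was seen; Tap2 of PC-2F and PC-3F (53.4 and 50.4 CPM) lies above both PC blocks, and B2m of pOPC (137 CPM) below every other library.

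Further members had larger values in one or both converted pericyte libraries, from low levels in PC. Parp14, an ADP-ribosyltransferase, was at 34.2 CPM in PC-2F and 23.6 CPM in PC-3F, against 12.5 CPM in PC block 1 and 0 CPM in PC block 2, where PC had 2 UMIs in all. Against all of PC it was 22.1-fold higher in PC-2F (5.74 to 189) and 15.3-fold in PC-3F (3.55 to 138), and against block 1 it was not called. The ratio was 13.4 in PC-2F with 1 barcode per group, and in PC-3F the gene then fell under the minimum of 10 UMIs. Gbp3, a guanylate-binding protein that acts against pathogens inside the cell, was at 28.4 CPM in PC-2F and 9.45 CPM in PC-3F, against 2.32 CPM in PC. Psmb8, the immunoproteasome subunit LMP7, was at 25.9 CPM in PC-2F and 9.45 CPM in PC-3F, against 2.32 CPM in PC. Both were called higher in PC-2F against all of PC, 12.2-fold (3.84 to 62.2) and 11.1-fold (3.47 to 56.9), or 7.59-fold and 19.8-fold with 1 barcode per group. Both were called lower in PC-3F than in PC-2F, for Gbp3 not with 1 barcode per group (0.481, 0.16 to 1.22). Against block 1 neither was called. Irf1 was at 19.2 CPM in PC-2F and 34.6 CPM in PC-3F, against 10.8 CPM in PC, and was called in PC-3F (3.20-fold, 1.56 to 6.76), also against block 2 (3.02) but not against block 1, which had 1 UMI. Psmb10, another immunoproteasome subunit, was at 59.2 CPM in PC-2F and 39.4 CPM in PC-3F, against 56.3 CPM in PC block 1 and 33.5 CPM in PC block 2, and was not called against PC. Psmb9 had 10.01 CPM in PC-2F, 6.30 CPM in PC-3F and no UMI in PC, below what was counted as measured. Psmb9 and Tap1 overlap at their starts on opposite strands, and the use of strand in counting is not given in the sources used here.

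Ifitm3 was higher in PC-3F than in PC, while Ifitm2, Ifi27 and Ifit2 gave calls that did not hold or none. Ifitm3 was at 280.2 CPM in PC-2F and 483 CPM in PC-3F, against 657 CPM in PC block 1 and 142 CPM in PC block 2. Against all of PC it was called in PC-3F (2.35-fold, 1.99 to 2.78), and the ratio was 1.91 when CPM were averaged over barcodes. Against block 1 it was 2.34-fold lower in PC-2F and not called in PC-3F, and against block 2 it was 1.97 in PC-2F, or 2.22 with 1 barcode per group. Ifitm2 was at 141 CPM in PC-2F and 197 CPM in PC-3F, against 150.1 CPM in PC block 1 and 96.2 CPM in PC block 2, called in PC-3F against block 2 alone (2.05), and Ifitm1 had no UMI in these 3 libraries. Ifi27, a mitochondrial and nuclear protein linked to cell death, was at 89.2 CPM in PC-2F and 123 CPM in PC-3F, against 113 CPM in PC block 1 and 48.6 CPM in PC block 2. Against all of PC it was called higher in PC-3F (2.17-fold, 1.56 to 3.03), with a ratio of 1.91 with 1 barcode per group and 1.09 against block 1. Ifit2, of the same family as Ifit1 and Ifit3, was at 20.02 CPM in PC-2F and 26.8 CPM in PC-3F, against 11.6 CPM in PC. It was called higher in PC-3F (2.31-fold, 1.08 to 4.96), with an interval of 0.897 to 8.08 with 1 barcode per group. Ifit and IFITM genes are families of similar sequence, so their separate counts carry the same uncertainty as the heavy chains.

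Bst2, Oasl2 and Rtp4 were lower in the converted pericytes than in PC, and most of that rested on block 1. Bst2 was at 28.4 CPM in PC-2F and 9.45 CPM in PC-3F, against 932 CPM in PC block 1 and 43.3 CPM in PC block 2. Against all of PC it was 5.40-fold lower in PC-2F and 16.2-fold lower in PC-3F. Against block 2 the call was lost in PC-2F (ratio 0.655, 0.41 to 1.04) and held in PC-3F (0.218, 0.0764 to 0.51). Oasl2 was at 6.67 CPM in PC-2F and 1.57 CPM in PC-3F, against 144 CPM in PC block 1 and 4.41 CPM in PC block 2. Rtp4 was at 1.67 CPM in PC-2F and 1.57 CPM in PC-3F, against 119 CPM in PC block 1 and 7.95 CPM in PC block 2. Neither was measured against block 2. Ifi35 was at 30.02 CPM in PC-2F and 15.7 CPM in PC-3F, against 35.6 CPM in PC, and was called lower in PC-3F (0.442, 0.199 to 0.889) but not against block 2. Irf9 was at 15.8 CPM in PC-2F and 25.2 CPM in PC-3F, against 68.8 CPM in PC block 1 and 10.6 CPM in PC block 2. It was called lower against block 1 in both, in PC-3F not with 1 barcode per group (0.405, 0.164 to 1.01), and higher in PC-3F against block 2 (2.38). Ifit3 was called lower against block 1 in both converted libraries, at 15.8 CPM in PC-2F and 17.3 CPM in PC-3F, against 81.3 CPM in PC block 1.

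**Figure D5:**
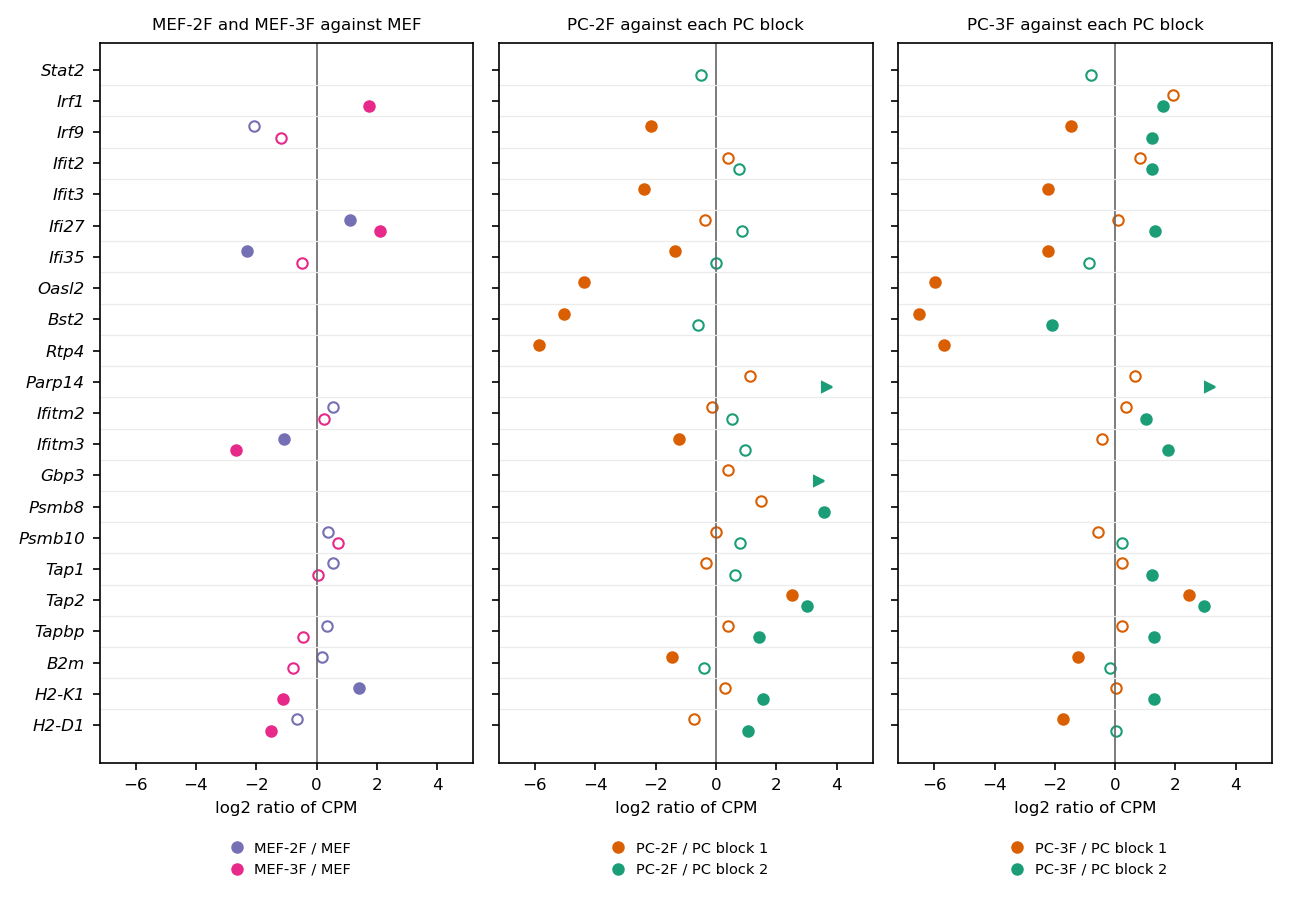
Log2 ratio of CPM of each measured module gene in MEF-2F and MEF-3F against MEF (left), in PC-2F against each PC block (middle) and in PC-3F against each PC block (right). Filled symbols passed the threshold, open ones did not, and triangles are lower bounds against 0 UMIs; Tap2 lies right of 0 against both PC blocks, while Bst2, Oasl2 and Rtp4 lie far left of 0 against block 1 (Oasl2 and Rtp4 were not measured against block 2).

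Ifit1 of PC-2F, the partner of Ifit3 on viral RNA, came almost wholly from 1 cell. That cell held 12 of the 13 Ifit1 UMIs of PC-2F (1 barcode per group). It held 32 UMIs of antiviral effectors among 7252, with 5 of Ifit3, 4 of Rsad2 (viperin, which blocks viral replication) and 3 of Oasl2, and no UMI of Sox10 or Olig2. The next cell held 9 among 16172. Class I chains were also uneven: 2 cells of PC-2F had 64 and 44 UMIs of B2m, and 26 and 19 of the 208 UMIs of H2-K1.

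Fibroblasts carrying the factors differed from untreated fibroblasts in few members, and for MEF-2F in none once 1 barcode per group was used. In MEF-2F against MEF, 2 of 11 measured members were higher and 2 lower, where 18.9% of all measured genes were higher and 13.8% lower, so the members' shares were near the background. In MEF-3F against MEF, 2 of 12 were higher and 3 lower, where 23.6% of all genes were higher and 12.7% lower. From 1 barcode per group MEF-2F gave 0 of 11 higher and 0 lower (15.4% and 10.8% of all genes), while for MEF-3F 1 of 12 was higher, Ifi27, and 3 were lower, Ifitm3, H2-K1 and H2-D1 (20.8% and 11.8%). The median log2 ratio over the members was 0.36 for MEF-2F (-2.06 to 1.10), against 0.05 over all genes, and -0.47 for MEF-3F (-1.18 to 0.72), against 0.27 over all genes. Fibroblast markers summed to 10133 CPM in MEF-2F and to 5290 CPM in MEF-3F, against 15730 CPM in MEF, and macrophage markers to 21.7 and 2.18 CPM, against 194 CPM in MEF. The part of the fibroblast markers in the results was not tested. With TMM scaling the median of all genes shifted to -0.24 in MEF-2F and -0.07 in MEF-3F.

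Ifitm3 was lower in MEF-3F, and in MEF-2F its ratio lay near the threshold. Its level was 282 CPM in MEF-2F, with 93.8 CPM in MEF-3F, against 607 CPM in MEF. The ratio was 0.465 in MEF-2F (0.353 to 0.604) and 0.155 in MEF-3F (0.111 to 0.212), and it was 0.519 in MEF-2F (0.38 to 0.699) with 1 barcode per group and 0.549 when CPM were averaged over barcodes. Ifitm3 had a UMI in 29 of 49 cells of MEF-2F, 20 of 94 of MEF-3F and 52 of 62 of MEF, and thinned to 1000 UMIs in 31.8%, 6.58% and 47.5% of cells. Ifi27 was at 78.1 CPM in MEF-2F and at 159 CPM in MEF-3F, against 36.7 CPM in MEF. Its ratio was 2.13 in MEF-2F (1.11 to 3.96), which was 1.75 with TMM scaling and 1.66 with 1 barcode per group, and 4.34 in MEF-3F (2.79 to 6.92). Irf1 was at 34.7 CPM in MEF-2F and at 30.6 CPM in MEF-3F, against 8.86 CPM in MEF, and was called in MEF-3F (3.45-fold, 1.30 to 10.1) but not with 1 barcode per group (3.10, 0.993 to 11.4). Ifi35 was at 4.34 CPM in MEF-2F and at 21.8 CPM in MEF-3F, against 31.7 CPM in MEF, and was called lower in MEF-2F on 1 UMI, which did not hold with 1 barcode per group (0.170, 0.00406 to 1.10).

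The class I heavy chains of MEF depended on the 4 barcodes with macrophage markers. H2-K1 was at 104 CPM in MEF-2F and at 17.5 CPM in MEF-3F, against 39.3 CPM in MEF, and at 18.0 CPM in MEF without those barcodes, which held 17 of its 31 UMIs. It was called higher in MEF-2F (2.65-fold, 1.49 to 4.67), though 1.63-fold (0.801 to 3.22) with 1 barcode per group and 1.83-fold when CPM were averaged over barcodes. It was called lower in MEF-3F (0.445, 0.177 to 0.989), and the ratio was 0.972 without those MEF barcodes. H2-D1 was at 39.1 CPM in MEF-2F and at 21.8 CPM in MEF-3F, against 64.6 CPM in MEF and 48.8 CPM in MEF without those barcodes. Over all kept barcodes it was called lower in MEF-3F with or without them. With 1 barcode per group it was at 27.8 CPM in MEF-3F and 51.4 CPM in MEF without the macrophage-marker barcodes, less than 2-fold apart. B2m was at 1454 CPM in MEF-2F and at 751 CPM in MEF-3F, against 1284 CPM in MEF and 1258 CPM without those barcodes. Its ratio in MEF-3F was 0.585 (0.516 to 0.661), past the 2-fold threshold only with TMM scaling (0.481). Tapbp was at 130.2 CPM in MEF-2F and at 74.2 CPM in MEF-3F, against 103 CPM in MEF, and Tap1 at 39.1, 28.4 and 27.9 CPM, neither of them called. Bst2 was at 8.68 CPM in MEF-2F and at 0 CPM in MEF-3F, against 16.5 CPM in MEF, and Ifitm2 at 82.5, 67.7 and 57.0 CPM.

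Between the converted fibroblast libraries, MEF-3F had 1 member higher than MEF-2F (Ifi27) and 2 lower (H2-K1 and Ifitm3) of 11 measured, where 8.98% and 7.01% of all genes were higher and lower. The Ifi27 ratio was 2.04 (1.20 to 3.63), and it was 1.80 when CPM were averaged over barcodes. H2-K1 was 5.97-fold lower and Ifitm3 3.01-fold lower in MEF-3F. In PC-3F against PC-2F, 0 of 18 were higher and 4 lower (Bst2, Gbp3, Psmb8 and H2-D1), where 5.08% and 5.98% of all genes were higher and lower. Of these, Bst2 and Psmb8 were lower with 1 barcode per group, 2 of 18, against 4.93% of all genes.

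Untreated pericytes and fibroblasts differed in 6 of 15 measured members. Of these, 5 were higher in PC (Stat2, H2-K1, Oasl2, Bst2 and Rtp4) and 1 lower (Ifitm3), where 20.5% of all genes were higher in PC and 15.9% lower. Stat2, Oasl2, Bst2 and Rtp4 were under 20 CPM in MEF, so they were measured through PC alone and could hardly be called lower. The call of Stat2 ended with 1 barcode per group (2.90, 0.970 to 11.7), and that of H2-K1 when CPM were averaged over barcodes (1.87). Calls of Oasl2 and Rtp4 ended without the 5% of cells highest in the members, and also with block 2 alone. With block 1 of PC alone 11 of 15 were higher than in MEF and 0 lower (15.5% and 13% of all genes), and with block 2 alone 3 of 13 were higher and 2 lower (19.9% and 15.8%). The counts for block 2 were 1 and 1 with 1 barcode per group. Bst2 was 9.31-fold higher in PC (5.32 to 17.8), or 14.4-fold with 1 barcode per group, and Ifitm3 2.95-fold lower.

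All 4 converted libraries had more members above pOPC than below it. The members that met the minimum in pOPC itself were Stat2, Psmb10, Tapbp, B2m and H2-D1. Other members were measured only through the converted library, where they are high, and could hardly be called lower. MEF-2F had 6 of 9 measured members higher and 0 lower, where 18.3% of all genes were higher and 23.9% lower. MEF-3F had 8 of 11 higher and 1 lower, where the shares of all genes were 20.1% and 19.3%, and with 1 barcode per group 5 of 9 higher and 0 lower (17.7% and 18.2%). PC-2F had 14 of 17 higher and 0 lower (20% and 21% of all genes), while for PC-3F 11 of 15 were higher and 0 lower (19% and 21.8%). These comparisons share the pOPC library, as those with MEF and with PC share their donor library, so they are not independent of each other. With members at 0 UMIs in pOPC set at the floor of 3 UMIs, the median log2 ratio was 2.72 for MEF-2F, 1.86 for MEF-3F, 2.67 for PC-2F and 2.41 for PC-3F.

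Ifitm3 and Ifitm2 had no UMI in pOPC. The ratio of Ifitm3 to the floor of 3 UMIs, which is not a limit of an interval, was 59.7 for MEF-2F, 19.9 for MEF-3F, 59.3 for PC-2F and 102 for PC-3F. With 1 barcode per group it was 37.9, 11.1, 35.9 and 62.2 in the same order. B2m was 10.6-fold higher in MEF-2F (8.35 to 13.6), 5.48-fold in MEF-3F (4.32 to 7.01), 9.20-fold in PC-2F (7.41 to 11.6) and 10.8-fold in PC-3F (8.66 to 13.6), against 137 CPM in pOPC. Tapbp, at 20.5 CPM in pOPC, was called higher in all 4 libraries, and so was Ifi27, at 3.15 CPM. H2-K1, at 15.8 CPM in pOPC, was called higher in all of them but MEF-3F. H2-D1 was called lower in MEF-3F (0.374, 0.166 to 0.768), though not with 1 barcode per group (0.453, 0.184 to 1.02), and higher in PC-2F, against 58.3 CPM in pOPC. Psmb10 was at 34.7 CPM in pOPC and was called in none of the 4. The converted libraries thus differed from the progenitors by wide ratios in Ifitm3, Ifi27 and B2m, and the ratio of Psmb10 was 1.001 to 1.71.

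In the order of the 7 libraries, B2m of PC stood above the rest, PC-3F, MEF-2F, MEF and PC-2F followed with neighbouring intervals that overlap, and MEF-3F and pOPC each lay apart below. For Ifitm3 the order was MEF, PC-3F, MEF-2F and PC-2F, PC, MEF-3F and pOPC, with MEF-2F and PC-2F overlapping, and with 1 barcode per group also MEF with PC-3F and PC-2F with PC. For each of Stat2, Irf1, Irf7 and Irf9 all neighbouring intervals in the order overlapped. Cxcl10, a chemokine that interferon induces, had 4 UMIs in PC-3F and none elsewhere.

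Cells of the converted libraries were also split by whether they had a UMI of Sox10 or Olig2, which depends on depth. In PC-2F the members summed to 2563 CPM in 67 cells with such a UMI and 3592 CPM in 28 cells without, at median depths of 8826 and 7585 UMIs. Ifitm3 was at 227 CPM in the cells with and 518 CPM in the cells without, H2-K1 at 240.04 and 326 CPM, and Bst2 at 25.4 and 49.3 CPM. Few cells carried part of this: 32 of the 74 antiviral effector UMIs in the cells without lay in 1 cell, and 26 of their 66 UMIs of H2-K1 lay in another. The latter cell also held 101 of their 403 UMIs of class I chains. In PC-3F the sums were 3036 and 3245 CPM, in MEF-2F 2395 and 2389 CPM, and in MEF-3F 1386 and 1484 CPM. Intervals of the sum were apart in PC-2F and overlapped in the other 3 libraries. They treat UMIs of the same cell as independent, and whether they stay apart in PC-2F without the cells named was not tested.

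Lists of genes outside the module are read against the shares of all measured genes called, which were 17.7% higher and 12.8% lower for PC-2F and 18.8% and 15% for PC-3F, each set against PC, with 18.9% and 13.8% for MEF-2F and 23.6% and 12.7% for MEF-3F, each set against MEF. Of 11 receptors and kinases that carry the interferon signal, 3 of 10 measured were higher and 1 lower in both PC-2F and PC-3F against PC, or 3 of 9 and 2 of 9 higher and 1 lower with 1 barcode per group. Stat3 was at 450.3 CPM in PC-2F and 379 CPM in PC-3F, against 88.2 CPM in PC, and Jak2 at 171, 105 and 44.1 CPM. Ifngr2, a chain of the type II interferon receptor, was lower, at 96.7 CPM in PC-2F and 102 CPM in PC-3F, against 215 CPM in PC. Against MEF, MEF-2F had 1 of 9 higher and 1 lower, while for MEF-3F 1 of 10 was higher and 3 were lower. Among sensors of nucleic acid 2 of 9 were higher and 0 lower in PC-2F, while PC-3F had 2 of 10 higher and 3 lower, or 2 of 9 and 0 with 1 barcode per group. Tlr3, which binds double-stranded RNA, was at 36.7 CPM in PC-2F and 52.0 CPM in PC-3F, against 5.42 CPM in PC. Tmem173 (STING) was at 4.34 CPM in MEF-2F and at 2.18 CPM in MEF-3F, against 35.5 CPM in MEF.

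Of the 50 interferon-stimulated genes outside the module, PC-2F had 3 of 16 measured higher and 3 lower against PC, with a median log2 ratio of 0.12, while for PC-3F 4 of 15 were higher and 4 lower, with a median of -0.04. Counted over 1 barcode per group, 2 of 14 were higher and 3 lower for PC-2F, and 1 of 14 was higher and 5 were lower for PC-3F. Against block 1 of PC, 0 of 16 were higher and 8 lower for PC-2F (15% and 10.9% of all genes). For PC-3F 0 of 15 were higher and 7 lower (14.9% and 12.1%). The medians of PC-2F and PC-3F were -1.21 and -1.14. Against block 2, 6 of 14 were higher and 2 lower for PC-2F (17.9% and 12.3%). For PC-3F 4 of 13 were higher and 2 lower (18.8% and 14.5%). Here the medians were 0.68 and 0.43. Genes measured through a block alone could hardly be called higher, and those measured through a converted library alone hardly lower. The list summed to 849 CPM in PC-2F and 726 CPM in PC-3F, against 2133 CPM in PC block 1 and 689 CPM in PC block 2, so its direction turned with the block, as that of the module did. MEF-2F had 1 of 8 higher and 3 lower against MEF (median -0.69), and MEF-3F had 0 of 8 higher and 5 lower (median -1.55), with 2 and 4 lower over 1 barcode per group. Other class I genes and loading factors had 2 of 7 higher in PC-2F, 1 of 6 in PC-3F, 0 of 3 in MEF-2F and, for MEF-3F, 1 of 5, with 0 lower, and with 1 barcode per group 1, 0, 0 and 0 were higher. The standard proteasome had 0 higher in any of these comparisons, and 2 of 5 lower in MEF-2F, or 0 of 5 with 1 barcode per group.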

How the data were processed

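Single-cell 3′ libraries with UMIs were prepared from 7 populations, 1 library each. Tools listed in the submitters' processing notes, with no order, were STAR 2.5.3a, UMI-tools 0.5.3, bcl2fastq 2.19.1.403 and featureCounts 1.6.1 (Subread), and the build was mm10. The deposited values, of a kind for which the authors name no unit (unit: other), are not UMI counts as they stand: each was read as the place, from 0, of a UMI count in the text-sorted list of counts that occur, per block of barcodes. Counts were recovered by aligning codes to text-sorted whole numbers under a smooth frequency model, tested on simulated data. No label states this; it was inferred from the values, and every level depends on it. Codes with a probability over 0.99 held 91.5% to 99.2% of UMIs, depending on the block.

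The plan assumed counts, and its rules were applied to the decoded values. Of 1140 barcodes, 1124 were kept, having 500 UMIs or more of which under 20% were mitochondrial. Of these, 518 were 1 base away from a deeper kept barcode or its group and had a similar profile; levels count all kept barcodes, as planned, and an alternative keeps the deepest of each group. CPM carry exact Poisson intervals, ratios exact intervals conditional on both counts, and shares exact binomial intervals (95%). These cover counting error only. Intervals of medians come from binomial ranks over the members, as if these were independent. A log2 ratio adds 0.5 UMIs per library. Cell shares used 1 barcode per group, thinned to 1000 UMIs (seed 7). No column of other samples was present. Values were given for members at 100 CPM or more in a library and for the 4 largest ratios per direction and comparison; of each other list, up to 4 measured genes with the largest ratio to the donor were named. Other members and the single cells described were chosen after their values were seen. The members and all gene lists were chosen with earlier results of these data known. Doublets were not called. Gene coordinates are from GENCODE M21 (GRCm38, the same assembly as mm10) and promoter sequences from RefSeq. Python 3.11.15, numpy 2.4.6, scipy 1.17.1, pandas 2.3.3 and matplotlib 3.10.9 were used. Alternatives were the scaling, the minimum level, the added constant, the minimum of UMIs per cell, single blocks, uncertain codes left out, codes taken as counts, cells highest in the members left out and, chosen after the data were seen, MEF without barcodes with macrophage markers and 1 barcode per group. One gene of the lists is not reported here.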

Additional observations from a re-analysis of the deposited data

Results flagged for a closer look

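Ifitm3 and H2-K1 moved in opposite directions in the 3-factor libraries of the donor types. The log2 ratio of Ifitm3 was -2.68 in MEF-3F against MEF and 1.23 in PC-3F against PC. The log2 ratio of H2-K1 was -1.10 in MEF-3F against MEF and 1.07 in PC-3F against PC. The difference between the donor types was not tested, since each population is 1 library. For H2-K1 the MEF side did not hold without the 4 MEF barcodes with macrophage markers (ratio 0.972), and the PC side was 1.03 against PC block 1 and 1.75 with 1 barcode per group. For Ifitm3 the PC side was 0.736 against PC block 1, while the MEF side did not change its call.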

How the results depend on the processing

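Of 453 values recomputed under an alternative, 374 stayed within the set limits, 79 moved and 0 reversed. The limit for a count is 1.5 times the count reported, and that for a median is its interval as reported. Only a median whose interval leaves out 0 could be scored as reversed. That outcome was thus fixed in advance for counts and for most medians, among them all those against a donor. The medians of PC-2F and PC-3F against pOPC and of the PC blocks were the only ones that could be scored so. The medians of PC-2F and PC-3F against PC turned from 0.66 and 0.94 to -0.35 and -0.45 with block 1 alone, and were scored within the limits. With the deposited codes taken as counts, MEF-2F against MEF had 5 members higher and 4 lower, MEF-3F against MEF 5 lower, PC-2F against PC 1 lower with a median log2 ratio of 1.69, and PC-3F against PC 1 lower with a median of 1.59. MEF-3F against MEF-2F had 3 higher and 7 lower with a median of -1.86, PC-3F against PC-2F 1 higher, and PC against MEF 2 higher and 3 lower. Against pOPC the codes gave 2 members lower in MEF-2F and 2 in MEF-3F, 1 lower in PC-2F (median 7.98) and 2 lower in PC-3F (median 7.18). TMM scaling gave 1 higher in MEF-2F and 5 lower in MEF-3F against MEF. The mean of CPM per cell gave 1 higher and 1 lower in MEF-2F against MEF, 5 higher in PC-3F against PC, 0 higher in MEF-3F against MEF-2F and 0 lower in MEF-3F against pOPC. With no minimum level, MEF-2F against MEF had 4 higher, MEF-3F against MEF-2F 4 lower, PC-3F against PC-2F 1 higher, MEF-2F against pOPC 11 higher and PC against MEF 2 lower. With a minimum of 100 CPM, MEF-2F and MEF-3F against MEF each had 1 higher and 1 lower, PC-2F against PC 2 higher and 1 lower, PC-3F against PC 4 higher and 1 lower, PC-3F against PC-2F 1 lower, and PC against MEF 2 higher. Against pOPC that minimum left 2 higher and 0 lower in MEF-3F, 6 higher in PC-2F and 6 in PC-3F. With 5 CPM added, MEF-2F against MEF had 1 higher and MEF-3F against MEF-2F 0 higher, and that count for MEF-3F against MEF-2F was also 0 with uncertain codes left out. With the first block of each joined library alone, MEF-2F against MEF had 0 lower, MEF-3F against MEF 1 higher and 1 lower, PC-2F and PC-3F against PC each 1 higher and 8 lower, MEF-3F against MEF-2F 0 higher, MEF-3F against pOPC 3 higher and 0 lower, and PC against MEF 11 higher and 0 lower. With the second block alone, MEF-2F against MEF had 0 higher and 1 lower, PC-2F against PC 0 lower, PC-3F against PC 1 lower with a median of 1.21, MEF-3F against MEF-2F 0 lower, MEF-2F against pOPC 2 higher, and PC against MEF 3 higher and 2 lower. With 1 barcode of each group of barcodes 1 base apart, MEF-2F against MEF had 0 higher and 0 lower, MEF-3F against MEF 1 higher, PC-3F against PC 3 higher, PC-3F against PC-2F 2 lower, and MEF-3F against pOPC 5 higher and 0 lower. Without the 5% of cells highest in the members, MEF-2F against MEF had 1 higher, PC-3F against PC 2 lower and PC against MEF 3 higher. The comparison of the PC blocks stayed within the limits in every alternative. The H2-K1 call in MEF-3F against MEF ended without those 5% of cells (0.835), with 5 CPM added (0.508) and without the MEF barcodes with macrophage markers (0.972). A minimum of 1000 UMIs per cell, no minimum, and leaving out those macrophage-marker barcodes moved 0 counts or medians. Except where a value or the construction of the alternative shows it, the cause was not tested. No paired analysis was possible because each population is 1 library. Depth limits what is seen in MEF-2F, where 3 UMIs are 13.0 CPM.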

Other observations

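Class II genes, which present peptides to helper T cells, were seen mainly in PC-2F. With 1 barcode per group H2-Aa had 58 UMIs there, 34 and 19 of them in 2 cells, against 1 UMI in PC-3F and 0 in the other 5 libraries. H2-Ab1 had 59 UMIs in PC-2F, 15 and 6 of them in the same cells, and was spread over 22 cells. The 2 cells had no UMI of Sox10 or of the leukocyte marker Ptprc, and the 10 microglia and macrophage markers summed to 5 UMIs in all of PC-2F.

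Of 5 measured chemokines and cytokines outside the module, 4 were called higher and 1 lower in PC-2F against PC (17.7% and 12.8% of all genes). In PC-3F 2 were higher and 1 lower (18.8% and 15%). These counts use all kept barcodes. Ccl5 was at 80.9 CPM in PC-2F and 48.8 CPM in PC-3F, against 0 UMIs in PC, Cxcl1 at 457 and 222 CPM, against 6.96 CPM in PC, and Ccl2 at 1456 and 512 CPM, against 275 CPM in PC, not called in PC-3F. Cxcl12 was lower, at 1.67 CPM in PC-2F and 18.9 CPM in PC-3F, against 199 CPM in PC. Ccl5 and Cxcl1 were measured through the converted libraries alone and could hardly be called lower. Cxcl12 was measured through PC alone and could hardly be called higher. Socs3, an inhibitor of JAK signalling, was at 217 CPM in MEF-2F and at 129 CPM in MEF-3F, against 7.60 CPM in MEF, and Ptpn2, a phosphatase that acts on JAK kinases, at 145 CPM in PC-2F and 154 CPM in PC-3F, against 28.6 CPM in PC.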
